A study of Homo sapiens with 8 samples.

Results

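The 38 genes described here encode proteins with which epithelial cells hold to each other, seal the space between them and tell their upper from their lower side. They fall into desmosome proteins, plakin cytolinkers, tight junction membrane and plaque proteins, catenins, polarity proteins, the adhesion molecule EPCAM and 5 transcription or splicing regulators of the epithelial state. They were chosen by gene name, with earlier results of these data known. A probe set counted for a gene where the platform annotation gave it that 1 symbol alone, and where a gene had several, the brightest by its mean of all 8 arrays stood for it. By this rule 35 of the 38 genes had a probe set and all 35 were tested, among 19775 genes with such a probe set and 13373 tested. No probe set was matched to F11R, and the probe sets of CTNND1 (4) and ESRP2 (1) carried several symbols, so these 3 genes were not analysed here.

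The cells were HCT116, an established human colorectal carcinoma line, seeded at 400000 per well. From the next day they received 20 nM largazole, 2 µM SAHA, 20 nM FK228 or vehicle for 10 h, after which total RNA was hybridized to Affymetrix U133 2.0 arrays. All 3 compounds inhibit histone deacetylases, enzymes that remove acetyl groups from histones and other proteins. Largazole is a cyclic depsipeptide carrying a thioester, SAHA (vorinostat) is a hydroxamic acid, and FK228 (romidepsin) is a bicyclic depsipeptide with a disulfide. Each group held 2 arrays labelled as duplicates, and nothing says whether they came from separate cultures on separate days, so the p-values measure the spread between these duplicates only. All 8 arrays come from 1 cell line, and the 3 comparisons with vehicle share the same vehicle arrays.

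Desmosomes are spot-like contacts in which desmocollin and desmoglein cadherins of neighbouring cells bind each other outside the cell, while plakoglobin, plakophilins and desmoplakin tie them to keratin filaments inside it. Tight junctions lie nearer the apical surface, where claudins and occludin-like proteins form strands that limit passage between cells and ZO scaffolds anchor those strands to actin. The Crumbs, Par and Scribble complexes mark apical and basolateral membrane. Grainyhead-like factors maintain the expression of many of these genes in epithelia such as that of the gut, and ESRP factors set the epithelial splicing of transcripts.

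The arrays were alike in their overall values. The array medians ran from 4.47 to 4.51 on the log2 scale, and the 2 arrays of a group correlated with r of 0.995 to 0.997 over all 54613 probe sets. Of 10 markers of colorectal epithelium, 9 passed the filter: EPCAM, KRT8, KRT18 and KRT19 lay between 11.91 and 12.95 on every array, whereas VIL1, CDX1 and CDX2 lay between 4.39 and 6.02 and LGALS4 was under the filter's floor on all arrays. CDX2, a transcription factor of the gut, fell by 0.82 with largazole and 0.90 with SAHA and was not called with FK228 (-0.56). Of 9 measured leukocyte markers 7 were under that floor on every array, PTPRC among them at no more than 2.90. The summed log2 level of 10 measured markers of squamous and other epithelia ran from 56.0 to 56.2 with largazole, from 55.5 to 56.2 with SAHA and from 55.4 to 56.2 with FK228, against 54.4 on both vehicle arrays. In that list GATA3 rose by 2.04, 1.81 and 2.04, while KRT14, ALB and APOA1 were under the floor on every array. Of 11 fibroblast and endothelial markers COL1A1 rose by 1.27 with largazole, 0.73 with SAHA and 0.60 with FK228, and 5 were under the floor on every array. The part of these marker differences in the junction results was not tested.

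Junction and polarity genes moved in both directions with every compound. A gene was called where limma's adjusted p (Benjamini-Hochberg over all tested probe sets) was under 0.05. With largazole 9 of the 35 members rose and 12 fell, against 21.9% and 23.2% of all tested genes. With SAHA 9 rose and 13 fell, against 22.1% and 25.2%. With FK228 10 rose and 17 fell, against 25.7% and 27% of all tested genes. Called in either direction were 45.2%, 47.4% and 52.8% of all tested genes with largazole, SAHA and FK228. As shares, 25.7% of the members rose and 34.3% fell with largazole, 25.7% and 37.1% with SAHA, and 28.6% and 48.6% with FK228. Since the genes were chosen with earlier results known, these shares and the medians below describe the members and are no test of the set.

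Called differences of at least 2-fold, that is 1 log2 unit, were found for 7 members with largazole (3 higher, 4 lower), 7 with SAHA (2 higher, 5 lower) and 11 with FK228 (4 higher, 7 lower). Of all tested genes, 9.09%, 9.89% and 13.9% passed the same limit. CLDN1, counted here as higher with largazole and FK228, rose from vehicle levels under the filter's floor. The median log2 difference of the members was -0.10 with largazole, -0.08 with SAHA and -0.22 with FK228, against 0.00, -0.02 and 0.01 over all tested genes. Their median absolute difference was 0.48, 0.47 and 0.61, against 0.27, 0.29 and 0.33. A member's 95% confidence interval reached a median of 0.23 to either side of its difference. In RNA from whole wells, fewer cells holding a transcript and less of it per cell cannot be told apart.

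**Figure D1:**
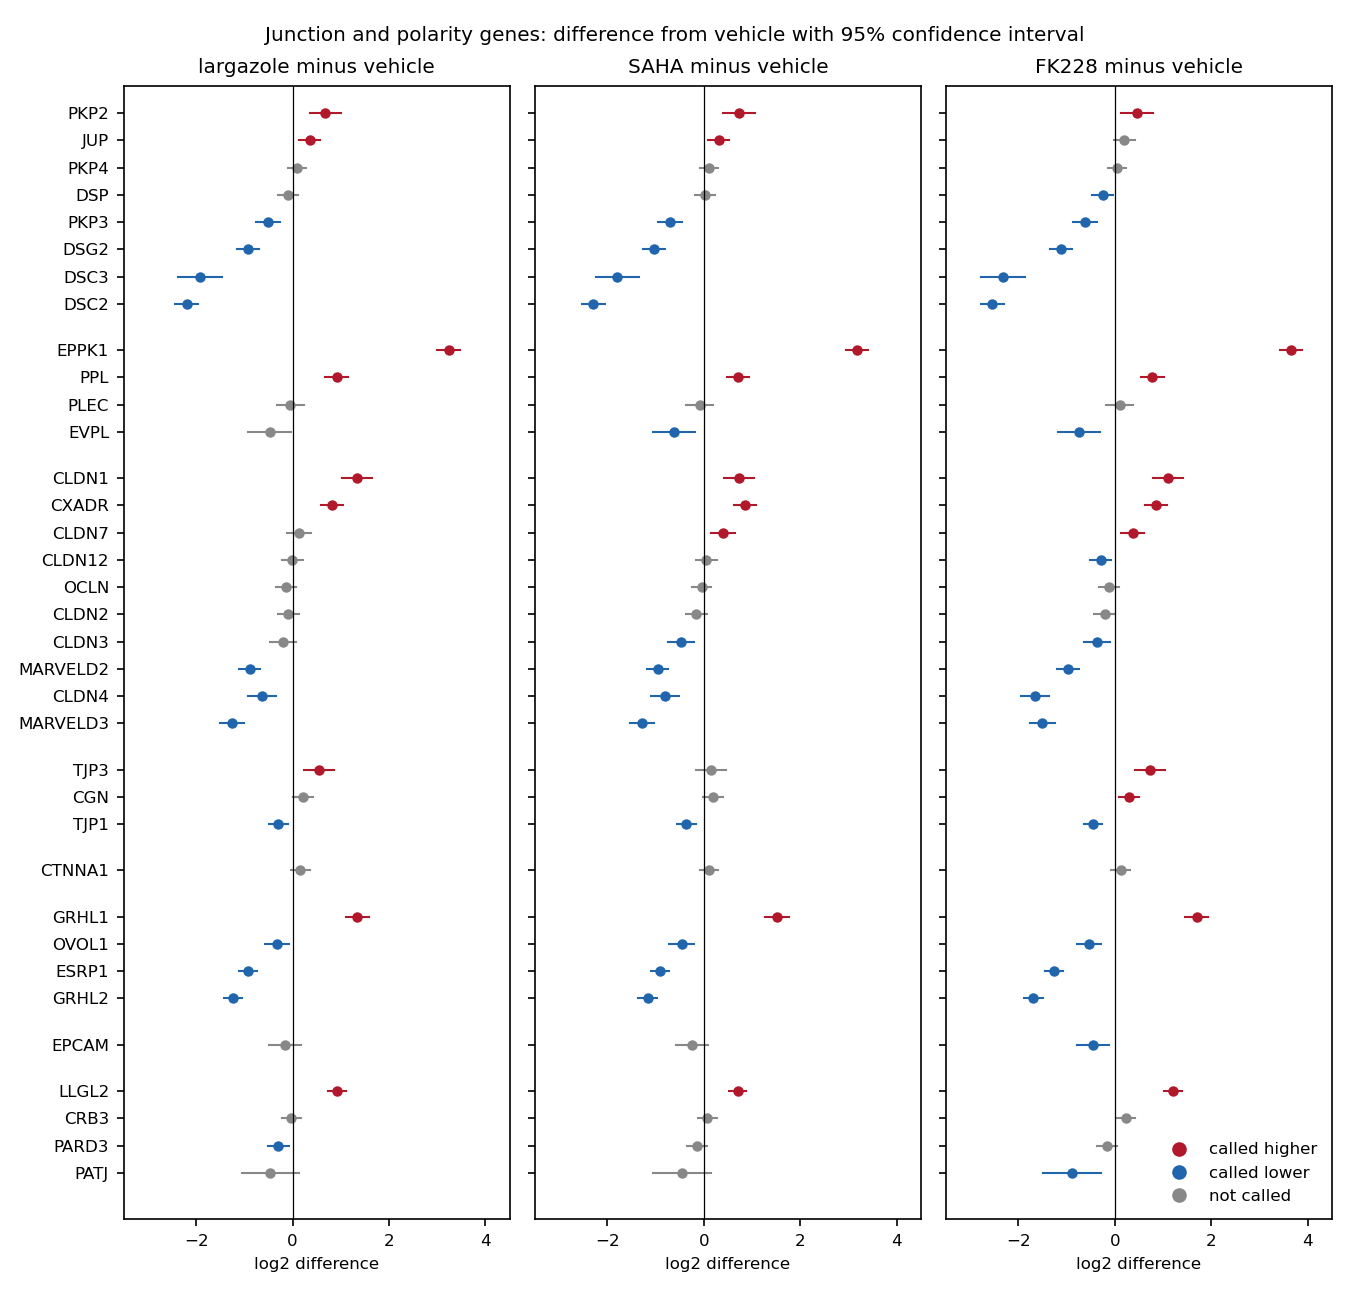
Log2 difference from vehicle (horizontal axis) of each of the 35 measured members, grouped by role from desmosome proteins at the top to polarity proteins at the bottom, in 3 panels for largazole, SAHA and FK228. Points are limma estimates, bars are 95% confidence intervals, red and blue mark members called higher and lower, and grey marks members not called. EPPK1 stands farthest to the right in every panel, at 3.24, 3.18 and 3.64, and DSC2 farthest to the left, at -2.19, -2.29 and -2.54.

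The start regions of the genes at both ends are shown because each of these genes was called in 1 direction with all 3 compounds. RefSeq's GRCh38.p14 table gave a start region for 21 of the 35 members, and the 250 bases before the most upstream listed start were used. Of these 21, GRHL1 and CLDN1 had the largest mean rise over the 3 compounds (1.52 and 1.05) and DSC2 and DSC3 the largest mean fall (-2.34 and -2.01). The CLDN1 rise is as measured, from vehicle levels under the filter's floor. The windows are chr2:9951443-9951692 on the plus strand for GRHL1, chr3:190322447-190322696 on the minus strand for CLDN1, chr18:31102422-31102671 on the minus strand for DSC2, which has 2 listed starts, and chr18:31042743-31042992 on the minus strand for DSC3. Each is written 5′ to 3′ along the gene, and capitals mark matches, on either strand, to CACCTG or GGGCGG.
GRHL1: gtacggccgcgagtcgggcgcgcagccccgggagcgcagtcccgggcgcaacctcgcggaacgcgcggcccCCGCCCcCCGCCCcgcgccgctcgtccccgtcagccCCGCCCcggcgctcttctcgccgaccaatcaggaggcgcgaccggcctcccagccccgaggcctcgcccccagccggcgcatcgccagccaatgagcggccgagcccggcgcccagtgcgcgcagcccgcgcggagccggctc
CLDN1: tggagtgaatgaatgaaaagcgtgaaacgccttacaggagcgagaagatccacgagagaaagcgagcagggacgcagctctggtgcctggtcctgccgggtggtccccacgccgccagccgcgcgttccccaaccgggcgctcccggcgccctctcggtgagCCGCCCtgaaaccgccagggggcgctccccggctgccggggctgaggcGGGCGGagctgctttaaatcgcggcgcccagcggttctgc
DSC2: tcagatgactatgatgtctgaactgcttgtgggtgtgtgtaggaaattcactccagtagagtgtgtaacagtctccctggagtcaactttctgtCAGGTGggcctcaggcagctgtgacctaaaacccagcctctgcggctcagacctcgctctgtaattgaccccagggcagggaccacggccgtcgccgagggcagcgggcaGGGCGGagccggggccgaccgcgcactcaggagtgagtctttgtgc
DSC3: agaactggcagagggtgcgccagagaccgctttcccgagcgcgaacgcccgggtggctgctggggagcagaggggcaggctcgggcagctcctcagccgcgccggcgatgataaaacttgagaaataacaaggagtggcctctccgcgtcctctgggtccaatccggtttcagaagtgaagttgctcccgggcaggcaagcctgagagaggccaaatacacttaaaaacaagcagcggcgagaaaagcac

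CACCTG is the core of the E-boxes that Snail and ZEB repressors bind, GGGCGG is the GC box bound by Sp factors, and AACCGGTT is a Grainyhead consensus. GRHL1 held the GC box 3 times in reverse orientation, the first base at -179, -172 and -143 from the start. CLDN1 held it at -88 and -40. DSC2 held 1 E-box core at -156, as its reverse complement CAGGTG, and 1 GC box at -46, and DSC3 held neither. No matches overlapped in these windows. Over the 21 member windows the E-box core was present in 7 (33.3%), against 17.5% of 27305 windows of all genes, and the GC box in 17 (81.0%), against 42.2%. The Grainyhead consensus was in 0 member windows and in 0.103% of all windows. The member windows were also richer in G and C, with a median of 66.8% against 57.6%. Of the members that fell with FK228, 5 of 10 windows held the E-box core (DSC2, DSG2, DSP, TJP1 and PATJ), of those that rose 0 of 5, and of those not called 2 of 6 (OCLN and CRB3). The split follows the FK228 calls, and DSP and PATJ were called with FK228 only. Their calls did not hold in every leave-one-out fit, as given below. These counts describe letters in a window and were not tested.

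The desmosomal cadherins fell with every compound, and the plaque proteins under them did not move as a block. Of 8 desmosome members, 2 rose and 4 fell with largazole, 2 rose and 4 fell with SAHA, and 1 rose and 5 fell with FK228. Of all tested genes 21.9% rose and 23.2% fell with largazole, 22.1% and 25.2% with SAHA, and 25.7% and 27% with FK228. The counts by role here and below are small and were not tested against these shares. DSC2 (desmocollin-2), the desmocollin of simple epithelia, had log2 levels of 7.18 and 6.99 with largazole, 7.04 and 6.94 with SAHA and 6.80 and 6.67 with FK228, against 9.33 and 9.23 with vehicle. All 6 treated arrays were lower than both vehicle arrays by more than 2 log2 units. The differences were -2.19, -2.29 and -2.54 (SE 0.10 each), or 4.57-fold, 4.88-fold and 5.81-fold lower, with limma adjusted p of 9.55e-06, 7.34e-06 and 2.35e-06. All 4 DSC2 probe sets were called lower with each compound, by 1.54 to 2.54 log2 units.

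DSC3, the desmocollin best known from stratified epithelia, lay at 4.52 and 4.17 with largazole, 4.28 and 4.66 with SAHA and 3.95 and 3.94 with FK228, against 6.50 and 6.03 with vehicle. The groups did not overlap, and the treated values lay around the median of all array values, 4.49, which is also the filter's floor. The differences were -1.92, -1.79 and -2.32 (SE 0.19), with adjusted p of 0.000199, 0.000237 and 4.67e-05. DSG2, the desmoglein of simple epithelia and the partner of DSC2, lay at 10.56 and 10.53 with largazole, 10.47 and 10.40 with SAHA and 10.42 and 10.27 with FK228, against 11.55 and 11.38 with vehicle. Every treated array was again below both vehicle arrays. DSG2 fell by 0.92, 1.03 and 1.12 log2 units (SE 0.10, adjusted p 0.000241, 0.000126 and 5.57e-05).

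These 3 genes belong to 1 run of 7 cadherin genes on chromosome 18. RefSeq's order of protein-coding genes there is DSC3, DSC2, DSC1, DSG1, DSG4, DSG3 and DSG2. The 4 genes between DSC2 and DSG2 were under the filter's floor, with no array above 3.84, so of the cluster only the 3 measurable genes at its ends could be tested, and all 3 fell with each compound.

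In the desmosomal plaque the differences were smaller. DSP (desmoplakin), which binds keratin, differed by -0.10 with largazole and 0.02 with SAHA and was called with FK228, at -0.26 (adjusted p 0.0482). Its levels were 10.30 and 10.21 with FK228, against 10.60 and 10.42 with vehicle. JUP (plakoglobin), the armadillo protein shared with adherens junctions, rose by 0.36 with largazole and 0.31 with SAHA and was not called with FK228 (0.19). The plakophilins, which cluster the cadherins, split: PKP2 rose by 0.68, 0.73 and 0.46, PKP3 fell by 0.50, 0.71 and 0.61, and PKP4 was not called (0.09, 0.10 and 0.04). The DSP call ended in every leave-one-out fit except that without vehicle replicate 2, with the highest adjusted p, 0.252, without vehicle replicate 1. The JUP calls ended without either array of the compound or either vehicle array (adjusted p 0.0603 to 0.0907 with largazole and 0.0503 to 0.124 with SAHA), and the PKP2 call with FK228 when FK228 replicate 1 was left out (0.31, adjusted p 0.148) or vehicle replicate 2 (0.36, 0.143).

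Of the 4 plakins, which link junctions and other anchoring sites to the cytoskeleton, 2 rose and none fell with largazole, and 2 rose and 1 fell with each of SAHA and FK228. EPPK1 (epiplakin), which binds and bundles keratin filaments, showed the largest difference of all members. Its levels were 10.78 and 10.91 with largazole, 10.77 and 10.81 with SAHA and 11.30 and 11.21 with FK228, against 7.71 and 7.51 with vehicle. Every treated array exceeded both vehicle arrays by more than 3 log2 units. The rises were 3.24, 3.18 and 3.64 (SE 0.10), or 9.42-fold, 9.06-fold and 12.5-fold, with adjusted p of 3.02e-06, 2.66e-06 and 6.97e-07. Of its 5 probe sets, 4, 3 and 4 were called higher. The mean over the 5 rose by 1.97, 1.87 and 2.19, and 1 of them differed by 0.10, 0.10 and -0.12, not called. That 1 probe set lay near the filter's floor on all arrays (4.30 to 4.75).

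PPL (periplakin), a partner of envoplakin at desmosomes and in the cornified envelope, rose by 0.91, 0.71 and 0.78 (adjusted p 0.000282, 0.000797 and 0.0004). Its levels were 9.92 and 10.05 with largazole, 9.72 and 9.85 with SAHA and 9.76 and 9.94 with FK228, against 9.10 and 9.04 with vehicle, without overlap. EVPL (envoplakin) differed by -0.48 with largazole, not called, and fell by 0.62 with SAHA and 0.75 with FK228, at levels between 4.41 and 5.62 that are near the floor. PLEC (plectin) differed by -0.05, -0.08 and 0.10 and was not called with any compound. The EVPL call with SAHA ended without either SAHA array (adjusted p 0.102 and 0.0897) or vehicle replicate 2 (0.172), and that with FK228 without FK228 replicate 1 (-0.48, 0.0569) or vehicle replicate 2 (0.0782). Without either FK228 array EVPL was called with largazole too (0.0305 and 0.0304).

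**Figure D2:**
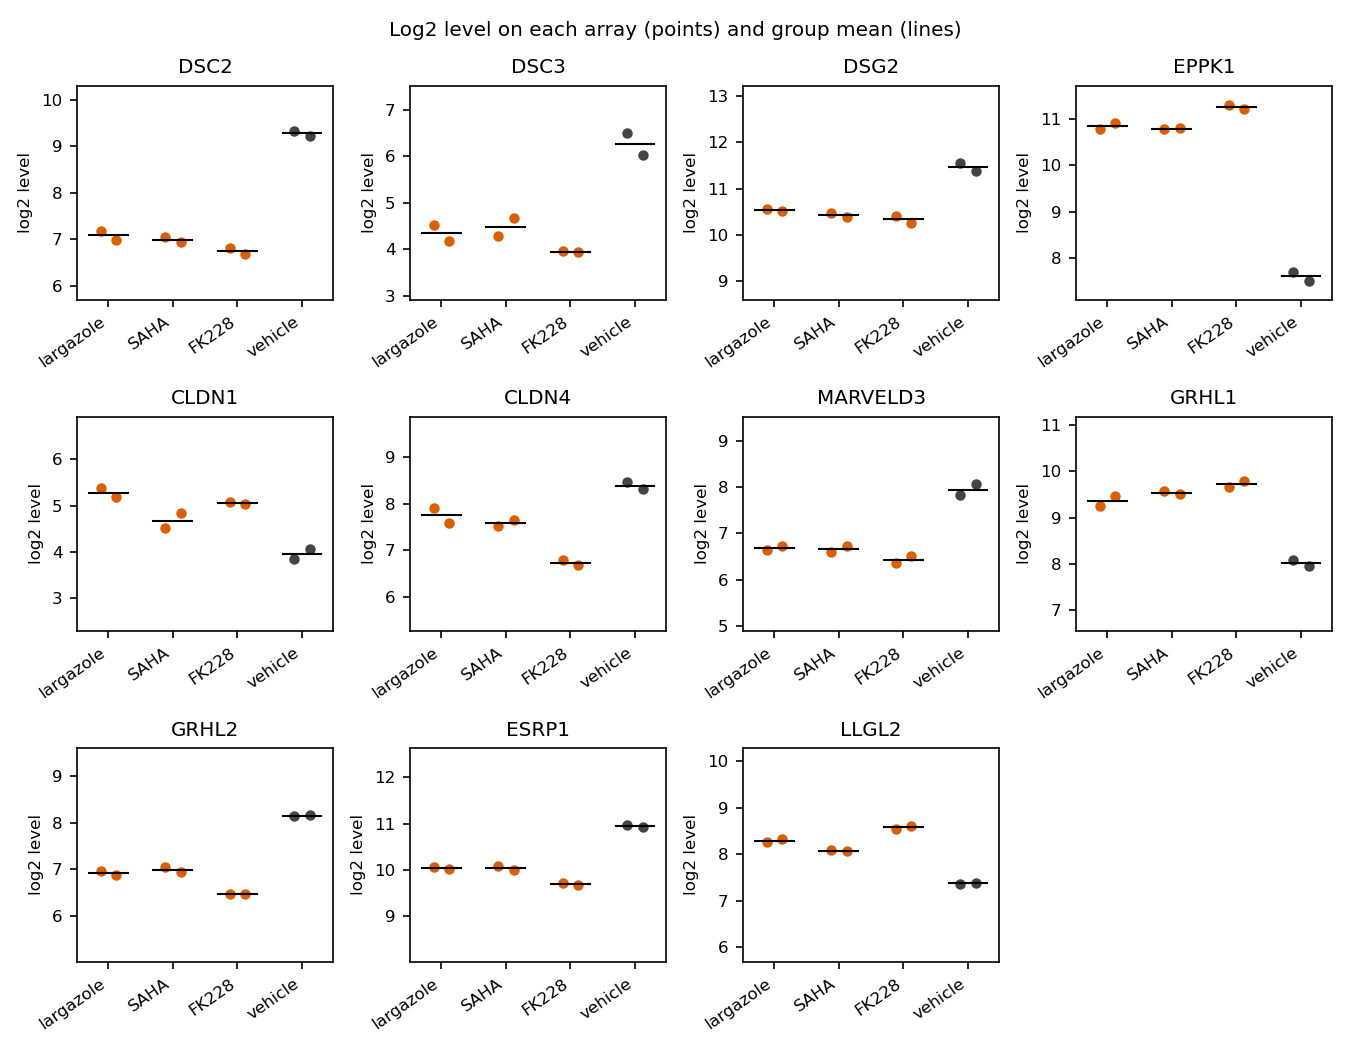
Log2 level (vertical axis, its own range in each panel) on each of the 8 arrays for the 11 members that were called with a difference of at least 1 log2 unit with any compound. Orange points are arrays of the 3 treated groups, dark points are vehicle arrays, and lines are means of 2 arrays. In each panel all 6 treated points lie on the same side of both vehicle points, above them for EPPK1, CLDN1, GRHL1 and LLGL2 and below them for the other 7 genes.

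The tight junction membrane proteins moved in both directions. Of the 10 measured, 2 rose and 3 fell with largazole, against 21.9% and 23.2% of all tested genes. With SAHA 3 rose and 4 fell, against 22.1% and 25.2%. With FK228 3 rose and 5 fell, against 25.7% and 27%. CLDN1 (claudin-1), a barrier-forming claudin, lay at 5.37 and 5.19 with largazole, 4.51 and 4.84 with SAHA and 5.07 and 5.04 with FK228, against 3.84 and 4.06 with vehicle. All treated arrays were above both vehicle arrays, which were below the floor of 4.49. It rose by 1.33, 0.73 and 1.10 (SE 0.13, adjusted p 0.000192, 0.00313 and 0.000301), and its second probe set did not pass the filter. CLDN1 passed the filter through its treated arrays alone, so the measured rises are not exact folds.

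CLDN4 (claudin-4), a claudin of tight gut and kidney epithelia, lay at 7.92 and 7.59 with largazole, 7.53 and 7.66 with SAHA and 6.78 and 6.68 with FK228, against 8.46 and 8.32 with vehicle. Every treated array was lower than both vehicle arrays, and the FK228 arrays were the lowest of all 8. It fell by 0.64, 0.80 and 1.66 (SE 0.13, adjusted p 0.00471, 0.00145 and 2.84e-05). A second CLDN4 probe set, near the floor on all arrays (4.36 to 4.68), was not called with any compound. The mean of both fell by 0.51 with SAHA and 0.86 with FK228. CLDN3, the neighbour of CLDN4 on chromosome 7, was not called with largazole (-0.19) and fell by 0.47 with SAHA and 0.37 with FK228, and its second probe set fell by 0.72 and 0.99 with the same compounds. CLDN7, often found along the lateral membrane of gut cells, was not called with largazole (0.13) and rose by 0.40 with SAHA and 0.36 with FK228. CLDN12 was called with FK228 (-0.30; not called with largazole, -0.00, or SAHA, 0.06).

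CLDN2, which forms cation pores in leaky epithelia, was not called (-0.09, -0.15 and -0.22). Its levels of 4.27 to 4.56 were at the floor, which it passed through its 2 vehicle arrays alone. With the replicate number as a block it was called with FK228 (adjusted p 0.0426). The CLDN3 call with SAHA ended when SAHA replicate 1 (-0.43, adjusted p 0.0679) or vehicle replicate 2 (-0.30, 0.0748) was left out, and that with FK228 without either largazole array (0.0529 each), either FK228 array (0.138 and 0.0569) or vehicle replicate 2 (-0.20, 0.187); without vehicle replicate 1 it was called with largazole (0.0459). The CLDN7 call ended with SAHA without either SAHA array (0.0581 and 0.0661) or vehicle replicate 1 (0.103), and with FK228 without FK228 replicate 2 (0.124) or vehicle replicate 1 (0.127). The CLDN12 call ended without either largazole array (0.0565 and 0.0564), either FK228 array (0.120 and 0.0837) or vehicle replicate 1 (-0.19, 0.203).

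By their brightest probe sets the MARVEL-domain proteins differed among themselves. MARVELD3, a tight junction protein related to occludin, lay at 6.65 and 6.72 with largazole, 6.61 and 6.72 with SAHA and 6.35 and 6.52 with FK228, against 7.82 and 8.06 with vehicle, with no overlap. The differences were -1.26, -1.28 and -1.51 (SE 0.11, adjusted p 0.000103, 8.16e-05 and 2.39e-05), and all 3 of its probe sets were called lower with each compound. MARVELD2 (tricellulin), which seals the points where cells meet at corners, fell by 0.89, 0.96 and 0.98 (adjusted p 0.00028, 0.000172 and 0.000107). OCLN (occludin), the founding member, was not called by its brightest probe set (-0.13, -0.04 and -0.12). The mean of its 4 probe sets fell by 0.25 with largazole (adjusted p 0.0258) and 0.35 with FK228 (adjusted p 0.00451), and was not called with SAHA.

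CXADR, an immunoglobulin-family junction protein known as the receptor of coxsackieviruses and adenoviruses, lay at 11.41 and 11.51 with largazole, 11.59 and 11.40 with SAHA and 11.50 and 11.47 with FK228, against 10.59 and 10.68 with vehicle. All treated arrays were above both vehicle arrays. It rose by 0.82, 0.86 and 0.85 (SE 0.10, adjusted p 0.000391, 0.000282 and 0.000212), and all 4 of its probe sets were called higher with each compound.

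The 3 plaque proteins under the strands also split. TJP1 (ZO-1), the main scaffold, fell by 0.29 with largazole, 0.36 with SAHA and 0.45 with FK228. TJP3 (ZO-3), a scaffold found mainly in epithelia, rose by 0.55 with largazole and 0.72 with FK228 and was not called with SAHA (0.14). CGN (cingulin), which links ZO scaffolds to actomyosin and microtubules, rose with FK228 (0.30) and was not called with largazole (0.22) or SAHA (0.18) on the probe set that stands for it, whereas the mean of its 2 probe sets rose with largazole (0.32, adjusted p 0.0489) and SAHA (0.34, 0.0346) as well. CTNNA1 (alpha-E-catenin), the actin link of cadherins in adherens junctions, was not called (0.16, 0.11 and 0.12), but 1 other of its 5 probe sets rose with SAHA (0.49), and so did their mean (0.21, adjusted p 0.0300). The TJP1 call with largazole ended without either largazole array (adjusted p 0.101 and 0.0909) or either vehicle array (0.0672 and 0.0997), and TJP1 with SAHA in the mean of 2 probe sets (-0.13, 0.309). The TJP3 call with largazole ended without largazole replicate 1 (0.0719) or vehicle replicate 1 (0.0668), and the CGN call without FK228 replicate 2 (0.137) or either vehicle array (0.0699 and 0.102).

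Of the 4 measured regulators 1 rose and 3 fell with each compound. GRHL1, a Grainyhead-like factor that activates desmosomal cadherin genes in mouse skin, lay at 9.26 and 9.46 with largazole, 9.57 and 9.50 with SAHA and 9.65 and 9.78 with FK228, against 8.09 and 7.95 with vehicle. It rose by 1.34, 1.52 and 1.70 (SE 0.10, adjusted p 6.13e-05, 3.26e-05 and 1.18e-05), without overlap and on both of its probe sets. GRHL2, its paralogue and in mice an activator of claudin-4 and E-cadherin genes, lay at 6.96 and 6.87 with largazole, 7.04 and 6.93 with SAHA and 6.46 and 6.47 with FK228, against 8.14 and 8.16 with vehicle. It fell by 1.23, 1.17 and 1.69 (SE 0.08, adjusted p 3.29e-05, 3.69e-05 and 4.79e-06). The 2 Grainyhead-like members thus moved in opposite directions, each with no treated array inside the vehicle range.

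ESRP1, which sets the epithelial splicing pattern of many transcripts, lay at 10.06 and 10.01 with largazole, 10.09 and 9.99 with SAHA and 9.72 and 9.68 with FK228, against 10.97 and 10.93 with vehicle. All treated arrays were lower, those with FK228 the most. It fell by 0.92, 0.91 and 1.25 (SE 0.08, adjusted p 0.000104, 9.45e-05 and 1.42e-05), on both of its probe sets. OVOL1, a zinc-finger repressor that holds cells in the epithelial state, fell by 0.32, 0.46 and 0.53. The OVOL1 call with largazole ended with the replicate number as a block (adjusted p 0.0558) and in 6 of 8 leave-one-out fits, namely without either largazole, SAHA or vehicle array (0.0541 to 0.233). With SAHA it ended without SAHA replicate 2 (0.0555) or vehicle replicate 2 (0.0670), and in the mean of its 2 probe sets no OVOL1 call was left (-0.15, -0.20 and -0.27).

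EPCAM, an adhesion molecule and surface marker of simple epithelia, was called with FK228, at -0.46 (adjusted p 0.0296), and differed by -0.16 with largazole and -0.24 with SAHA. Its levels were 12.20 and 12.04 with FK228, against 12.74 and 12.42 with vehicle. Among the polarity proteins, LLGL2, a basolateral protein that works with Scribble, rose. It lay at 8.27 and 8.32 with largazole, 8.09 and 8.07 with SAHA and 8.55 and 8.61 with FK228, against 7.36 and 7.39 with vehicle, with no overlap. The rises were 0.92, 0.70 and 1.21 (SE 0.08, adjusted p 9.01e-05, 0.000269 and 1.46e-05). Its other probe set gave 0.54 and 0.45, not called, with largazole and SAHA and 0.59 with FK228. The EPCAM call ended without FK228 replicate 2 (0.131) or vehicle replicate 1 (-0.29, 0.176).

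The apical proteins gave smaller or less certain differences. PATJ, a Crumbs complex scaffold, fell by 0.89 with FK228 (SE 0.26, adjusted p 0.0214) and differed by -0.46 and -0.45 with largazole and SAHA. Its arrays were 7.23 and 6.66 with largazole, 7.12 and 6.79 with SAHA and 6.68 and 6.33 with FK228, against 7.70 and 7.10 with vehicle, the first array of each group being the higher. With the replicate number as a block PATJ was also called with largazole and SAHA (adjusted p 0.0101 each). Its other tested probe set lay near the floor, at 4.08 to 4.64. It was called lower with largazole (-0.36, adjusted p 0.0449) and FK228 (-0.45, 0.0152) and not with SAHA (-0.06). The mean of both PATJ probe sets was called lower with largazole too (-0.41, 0.0364). PARD3, the scaffold of the Par complex, fell with largazole (-0.29) and was not called with SAHA (-0.15) or FK228 (-0.17), while the mean of its 4 probe sets was called lower with SAHA too (-0.22, adjusted p 0.0434). CRB3, the Crumbs protein of epithelia, was not called (-0.03, 0.08 and 0.22), and with the block was called higher with FK228 (0.0467). The PATJ call with FK228 ended without FK228 replicate 2 (0.104) or vehicle replicate 1 (-0.59, 0.133), and the PARD3 call without either largazole array (0.154 and 0.0947) or vehicle replicate 2 (-0.21, 0.187).

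Where a member had more than 1 tested probe set, the called ones never pointed in opposite directions. Against vehicle, DSC2, DSC3, DSG2, MARVELD3, CXADR, GRHL1 and ESRP1 were called the same way by all of their tested probe sets with every compound. Calls against vehicle that rested on 1 of 2 probe sets were those of PKP2, PKP3, CLDN4, TJP1, TJP3 and OVOL1, and in addition LLGL2 with largazole and SAHA and MARVELD2 with SAHA. The other probe sets of PKP2 (3.96 to 4.60) and PKP3 (4.21 to 4.72) lay near the floor of 4.49 on all arrays. So did those of CLDN4 (4.36 to 4.68) and OVOL1 (4.30 to 4.75). At such levels a missing call does not show that the gene was unchanged. For PKP2 the other probe set differed by -0.06, -0.20 and 0.13, and the mean of both was not called (adjusted p 0.0937, 0.139 and 0.101). For PKP3 the mean was called with SAHA (-0.44), and for TJP3 it rose by 0.32 with largazole and 0.43 with FK228. For PKP4 another probe set rose by 0.51 with SAHA and 0.54 with FK228.

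**Figure D3:**
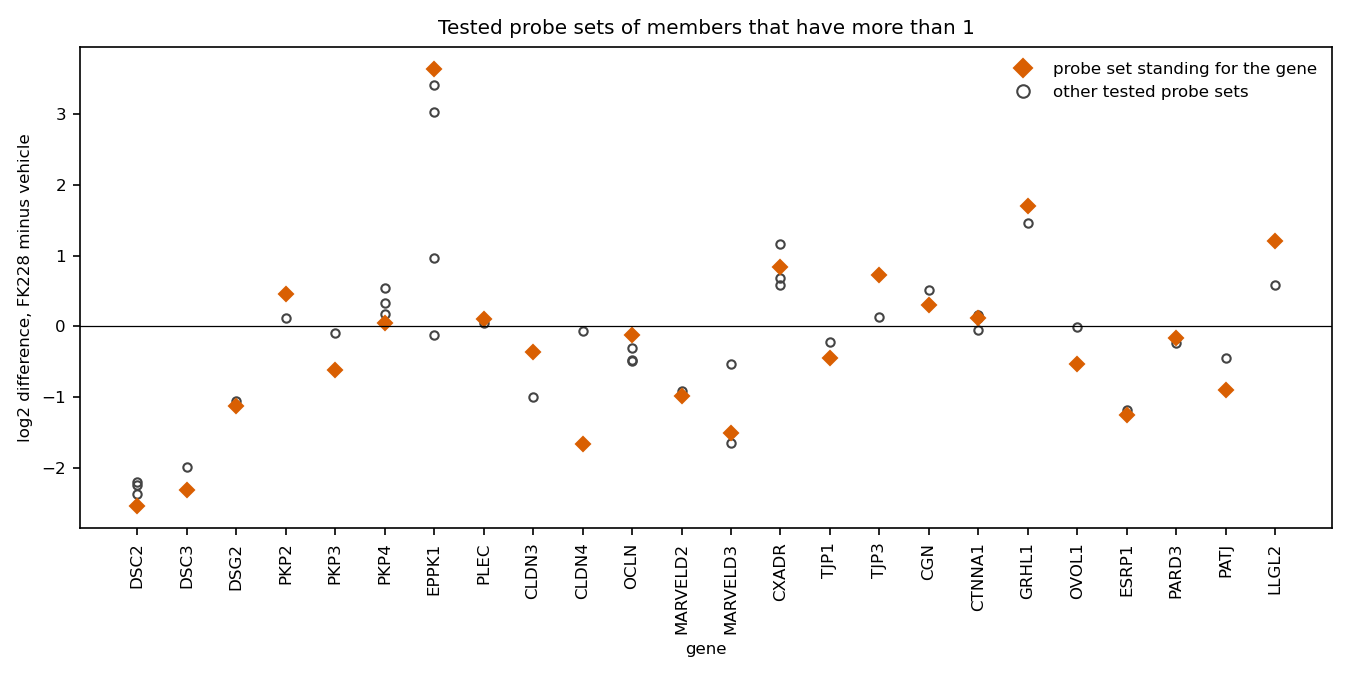
Log2 difference with FK228 against vehicle (vertical axis) for every tested probe set of the members that have more than 1 (horizontal axis). Orange diamonds are the probe sets that stand for the gene and open circles are the others. All 4 DSC2 probe sets lie at or below -2.20, whereas the 5 EPPK1 probe sets reach from -0.12 to 3.64.

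FK228 and largazole, both at 20 nM, were the only pair of compounds at a matched dose. SAHA was given at 2 µM, so its values stand beside theirs without a comparison. Of the 35 members, 1 was higher and 3 were lower with FK228 than with largazole, against 4.19% and 4.88% of all tested genes, or 9.06% in either direction. CLDN4 differed most, at -1.02 (SE 0.13, adjusted p 0.00634), with 6.78 and 6.68 with FK228 against 7.92 and 7.59 with largazole. It was the only member beyond 2-fold, where 0.523% of all tested genes lay, and it was called in all 8 leave-one-out fits. The mean of its 2 probe sets differed by -0.43 (adjusted p 0.0138).

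GRHL2 was lower with FK228 by 0.45 (adjusted p 0.0202) and ESRP1 by 0.33 (0.0467), and EPPK1 was higher by 0.41 (0.0479). For each of the 3 the FK228 arrays did not overlap the largazole arrays, which adds no support since the genes were picked by these calls. The other ESRP1 probe set was not called (-0.19, adjusted p 0.191). Of the 5 EPPK1 probe sets 1 was called, and their mean was not (0.22, adjusted p 0.107). The GRHL2 call ended without either largazole array (0.145 and 0.0852) or either FK228 array (0.0773 and 0.0758), and the ESRP1 and EPPK1 calls ended in all 8 leave-one-out fits (0.0555 to 0.231 and 0.0519 to 0.250). With the replicate number as a block 2 members were higher and 5 lower. DSC2 (-0.35, adjusted p 0.0283), PATJ (-0.44, 0.0387) and LLGL2 (0.29, 0.0434) were called in that fit and EPPK1, CLDN4, GRHL2 and ESRP1 stayed called.

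The other 31 members were not called between FK228 and largazole, with adjusted p of 0.0640 to 0.974, and their 95% intervals spanned -1.03 to 0.60. For GRHL1 the difference was 0.36 (interval 0.11 to 0.60) and for DSC2 it was -0.35 (-0.58 to -0.11). For CXADR it was 0.03 (-0.20 to 0.25) and for OCLN 0.01 (-0.20 to 0.21). These intervals hold for 1 probe set per gene. The other GRHL1 probe set was called higher with FK228 (0.58, adjusted p 0.0435), as was the mean of both (0.47, 0.0140). For DSC2 the mean of its 4 probe sets was called lower (-0.47, 0.0255). Other probe sets, not called, differed by up to -0.30 for CXADR and -0.44 for OCLN. The members' median difference was -0.16, against -0.00 over all tested genes.

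**Figure D4:**
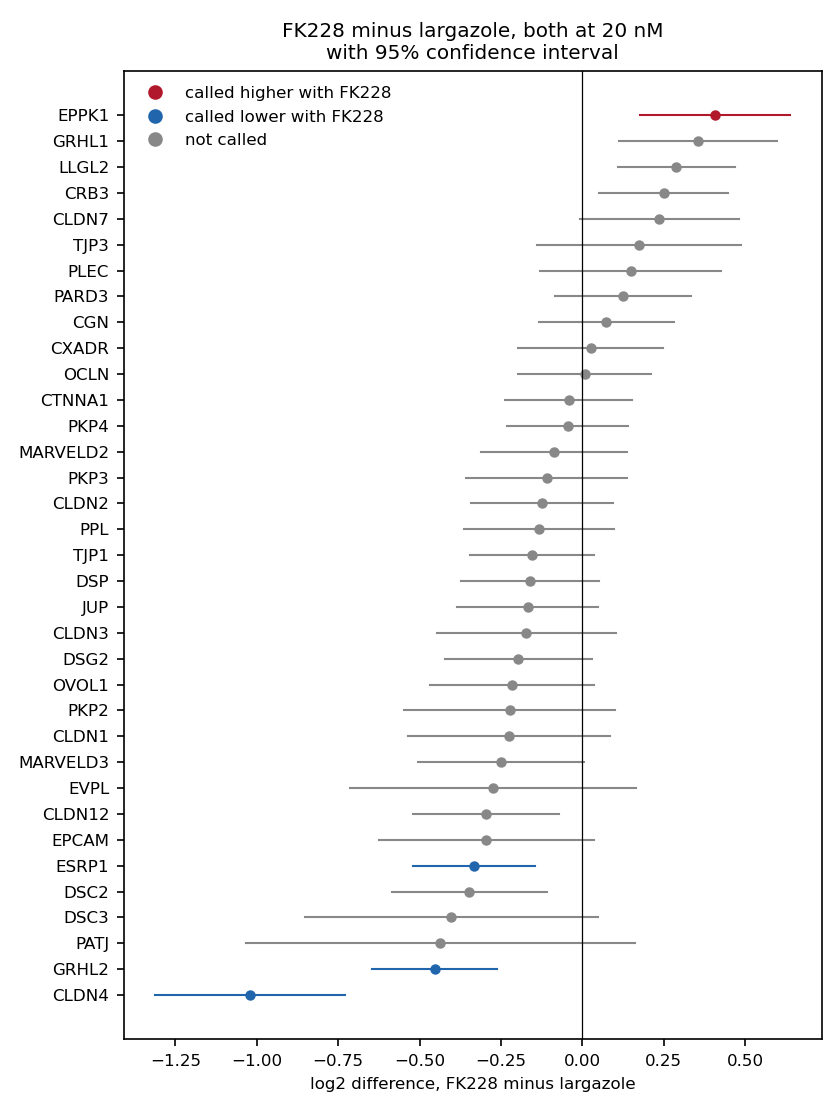
Log2 difference of FK228 minus largazole (horizontal axis) for each of the 35 measured members, sorted from highest to lowest, with 95% confidence intervals. The red point is the member called higher with FK228, blue points are those called lower, and grey points were not called. CLDN4 lies farthest from 0, at -1.02, and most grey intervals cross 0.

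Related genes outside the 38 were read from 5 lists drawn up by function. Their counts stand beside the shares over all tested genes and were not tested. Those shares were 21.9% higher and 23.2% lower with largazole, 22.1% and 25.2% with SAHA, and 25.7% and 27% with FK228. Of 13 other desmosome and keratin-anchor genes only 7 were tested, since DSC1, DSG1, DSG3, DSG4, PKP1 and KRT80 did not pass the filter. Of the 7, 1 rose and 1 fell with largazole, 1 and 1 with SAHA, and 0 and 2 with FK228. DST (dystonin), a plakin, fell by 1.13, 1.09 and 1.48, KRT19 rose by 0.37 and 0.47 with largazole and SAHA and was not called with FK228 (0.17), and PERP, a desmosomal membrane protein, fell by 0.29 with FK228.

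All 14 adherens junction genes were tested, and 5 rose and 3 fell with largazole, 7 and 3 with SAHA, and 5 and 3 with FK228. CDH1 (E-cadherin), the main cadherin of epithelia, lay at 10.20 and 10.08 with largazole, 10.26 and 10.11 with SAHA and 10.21 and 9.99 with FK228, against 9.41 and 9.40 with vehicle, and rose by 0.74, 0.78 and 0.69. All treated arrays were thus above both vehicle arrays for E-cadherin and below them for the desmosomal cadherins DSC2, DSC3 and DSG2. VCL (vinculin) rose by 0.73, 0.65 and 0.90 and NECTIN2 by 0.48, 0.66 and 0.75. AJUBA, a LIM protein at cadherin contacts, fell by 1.10, 1.22 and 1.86, NECTIN3 by 0.81, 0.83 and 1.26, and SORBS3 (vinexin) by 0.62, 0.69 and 0.72.

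Of 26 other tight junction genes 15 were tested, and 4 rose and 1 fell with largazole, 3 and 1 with SAHA, and 1 and 1 with FK228. YBX3 (ZONAB), a DNA-binding partner of ZO-1, fell by 0.39, 0.48 and 0.55. LSR, which recruits tricellulin to cell corners, rose by 0.56 and 0.37 with largazole and SAHA and was not called with FK228 (0.28), and its relative ILDR1 rose with largazole (0.93; not called with SAHA, 0.60, or FK228, 0.39). Of 24 other polarity genes 20 were tested, and 5 rose and 2 fell with largazole, 4 and 5 with SAHA, and 4 and 6 with FK228. LIN7A rose by 0.70, 0.67 and 0.57, PARD6A by 0.44, 0.34 and 0.90 and PRKCZ (atypical protein kinase C zeta) by 0.46, 0.37 and 0.73. DLG5, a membrane-associated guanylate kinase protein, fell by 1.68, 1.66 and 1.72 and DLG3 by 0.39, 0.35 and 0.56. AMOTL2, an angiomotin-like protein, was not called with largazole (-0.30) and fell by 0.51 with SAHA and 1.32 with FK228.

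**Figure D5:**
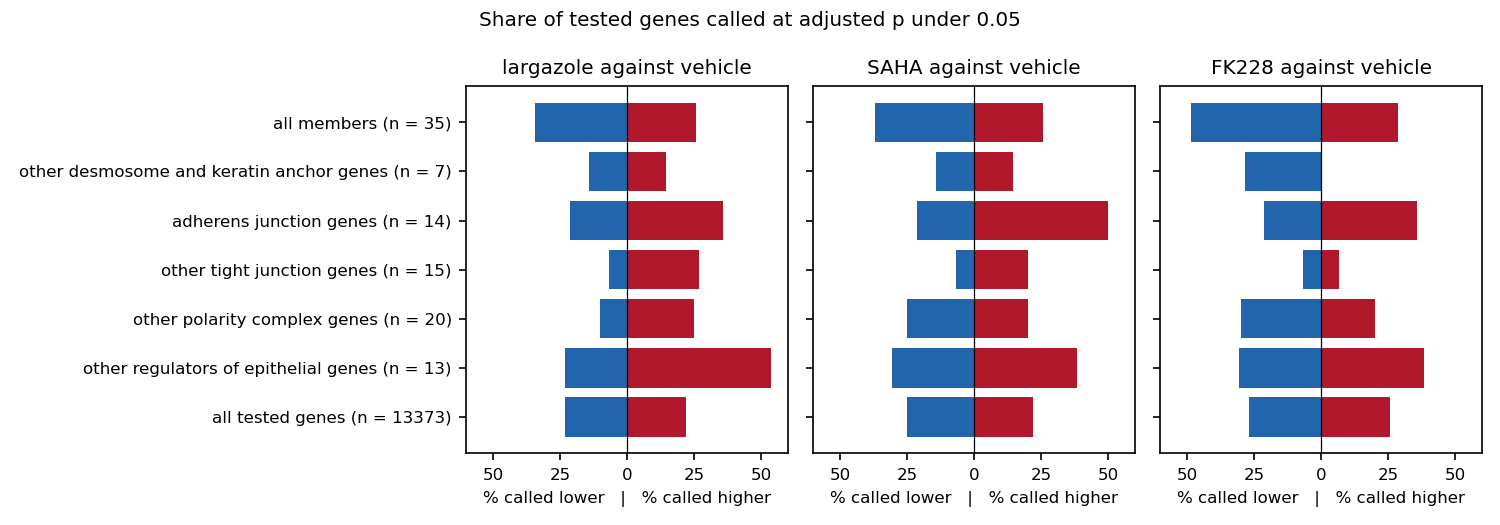
Percent of tested genes called higher (red, to the right of 0) and lower (blue, to the left) in each comparison with vehicle, for all 35 measured members, 5 related gene lists and all 13373 tested genes. For the members the bars reach 25.7% and 34.3% with largazole, 25.7% and 37.1% with SAHA, and 28.6% and 48.6% with FK228, higher and lower.

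Of 14 other regulators of epithelial genes 13 were tested, and 7 rose and 3 fell with largazole, 5 and 4 with SAHA, and 5 and 4 with FK228. SNAI2 (Slug), an E-box repressor of epithelial genes, lay at 7.38 and 7.29 with largazole, 6.98 and 7.06 with SAHA and 7.41 and 7.29 with FK228, against 3.65 and 3.10 with vehicle. Its vehicle arrays were under the floor, so the measured rises of 3.96, 3.65 and 3.98 are not exact folds (adjusted p 6.39e-06, 7.53e-06 and 2.51e-06). ZEB1, another E-box repressor, rose by 1.12, 0.87 and 0.99, and KLF5, a gut epithelial activator, rose with largazole (1.25; not called with SAHA, 0.84, or FK228, 0.48). EHF, an epithelial ETS factor, lay at 4.87 and 5.01 with largazole, 4.40 and 4.48 with SAHA and 3.91 and 3.66 with FK228, against 8.53 and 8.52 with vehicle. It fell by 3.59, 4.09 and 4.74 as measured, with the SAHA and FK228 arrays under the floor, its relative ELF3 by 0.34, 0.55 and 0.80, and TWIST1, a factor of mesenchymal cells, by 0.70, 1.13 and 1.23. GRHL3, the third Grainyhead-like gene and named here after its values were seen, rose by 1.11 with largazole and 0.74 with SAHA and was not called with FK228 (0.54).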

How the data were processed

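Total RNA of HCT116 cells was measured on 8 arrays, 2 per group. The values are log2 expression levels as deposited by the authors; per the submitters' processing notes affy, RMA and limma were used, with versions and roles not given in the sources used here. Replicate arrays were grouped by the sample labels.

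Probe sets were kept where the second-highest of the 8 values reached the median of all values (4.49), which left 28985 of 54613. A linear model with 1 coefficient per group over all 8 arrays was fitted with limma 3.58.1 (lmFit, eBayes) in R 4.3.3, with 4 residual and 3.69 prior degrees of freedom, and p-values were adjusted by the Benjamini-Hochberg method over all kept probe sets in each of 4 comparisons. The script was tested on simulated data. Tables and figures used Python 3.11.15, pandas 2.3.3 and matplotlib 3.10.9. Of 41091 probe sets with 1 symbol, 41037 matched RefSeq's gene table, and 0 symbols changed.

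The related gene lists, like the members, were chosen with earlier results of these data known. Values per array are given for members called with a difference of at least 1 log2 unit with any compound or between FK228 and largazole, and for a few others; of each related list, up to 3 called genes with the largest mean rise and up to 3 with the largest mean fall are named, except for a gene that is not reported here.

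The sample titles number the replicate arrays and do not say whether same-numbered arrays were paired. Deviations of same-numbered arrays from their group means correlated with r of 0.128 to 0.268 over the kept probe sets in all 6 pairs of groups. Pairing is thus possible and not established, and the replicate number served as a block in an alternative fit only. The fit without the block is the one reported. Alternatives changed the filter, prior variance, scaling, probe sets, arrays in the fit and block, and left out each array. The number of arrays limits the precision.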

Additional observations from a re-analysis of the deposited data

How the results depend on the processing

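With 2 arrays per group, a member's 95% interval reached a median of 0.23 log2 units either side, which limits what could be resolved. Over 2324 member results under the alternatives, 2129 kept their direction and side of the threshold, 130 lost the call, 37 gained it, 0 called ones changed sign, and 28 uncalled ones did. The counts of members called against vehicle stayed within 1.5 times of those reported under each alternative. The counts between FK228 and largazole did not. The 1 member higher with FK228 became 0 with no filter, 0 without probe sets ending in _x_at or _s_at, 0 with only the 4 arrays compared, 2 with the replicate block, 3 with an intensity trend and robust prior, and 4 with a stricter filter (75th percentile). The 3 lower became 1 with no filter, 1 with only the 4 arrays compared, and 5 each with the stricter filter, the trend and the block. Calls changed by the block are given beside the members, and it changed no other.

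Leaving out each array in turn gave, for largazole, 7 to 9 members higher, 9 to 13 lower and a median of -0.12 to -0.08. For SAHA it gave 7 to 9, 10 to 13 and -0.09 to -0.06, and for FK228 8 to 10, 12 to 16 and -0.22 to -0.14. For FK228 against largazole it gave 0 to 0 higher, 1 to 2 lower and a median of -0.159 to -0.0759. Calls were kept in all 8 such fits by 16 of 21 members with largazole, 17 of 22 with SAHA, 18 of 27 with FK228 and 1 of 4 between FK228 and largazole. The stricter filter left 31 members and dropping _x_at and _s_at probe sets left 27. Further scaling by quantiles or by ribosomal protein genes moved the median difference over all kept probe sets by less than 0.1. Both scalings still ended the calls of OVOL1 and PARD3 with largazole and of DSP and CLDN3 with FK228 (limma adjusted p 0.0507 to 0.0887). Ribosomal scaling also ended the ESRP1 call between FK228 and largazole (0.0582). Quantile scaling added a call of CGN with largazole (0.27, 0.0384).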
